A study of Mus musculus with 8 samples.

Results

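Elastic fibre and microfibril genes were followed on either side of the dorsal aorta, in tissue of mouse embryos at embryonic day 12.5. The group was set as a list of 10 symbols, Eln, Fbn1, Fbn2, Fbln1, Fbln2, Fbln5, Efemp2, Ltbp1, Emilin1 and Mfap5, out of 24675 genes that had a row with 1 symbol in the array's annotation. That annotation named a row for 8 of the 10, and Fbn1 and Efemp2 were not analysed here. Of these 8 genes, 7 lay above the array median on all 8 arrays and were tested, while Mfap5 lay above it on 3 arrays and is given by its values. Embryos were of the C57Bl/6 strain, with no transgene or treatment named. Dorsal tissue was the region from the notochord to the aortic roof and ventral tissue the region beneath the aorta. Both were cut by laser from frozen sections of the same embryos, and each was measured on 4 Affymetrix Gene 2.0 ST arrays, called biological replicates 1 to 4. The labels do not say whether a number stands for 1 embryo, so a p-value reflects only how far these samples spread.

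Elastic fibres let the wall of a large artery stretch and recoil. They have a core of cross-linked elastin, which is laid down on microfibrils built from fibrillins and their partners, and fibulins help to bring elastin, the cross-linking enzymes and the microfibrils together. Microfibrils also hold latent complexes of TGF-beta through the latent TGF-beta binding proteins. In the embryo the aortic wall begins to recruit smooth muscle cells, which are a main source of elastin later in development.

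Fbln5 and Ltbp1 had the widest differences between the tissues among the 7 genes tested, and Fbln1 is a fibulin with no such gap, so the sequences before their start sites are shown for comparison. They are RefSeq promoter windows of assembly GRCm38, read 5′ to 3′ on the gene's strand and ending just before the outermost start of the gene. Capitals mark the letters GGGCGG (a GC box) or CAGAC (letters at the core of Smad binding elements), on either strand, so that the reverse complement of each is also in capitals. The windows were on chr12:101819120-101819369 (minus strand) for Fbln5, chr17:75005279-75005479 (plus strand) for Ltbp1 and chr15:85205699-85205948 (plus strand) for Fbln1.
Fbln5: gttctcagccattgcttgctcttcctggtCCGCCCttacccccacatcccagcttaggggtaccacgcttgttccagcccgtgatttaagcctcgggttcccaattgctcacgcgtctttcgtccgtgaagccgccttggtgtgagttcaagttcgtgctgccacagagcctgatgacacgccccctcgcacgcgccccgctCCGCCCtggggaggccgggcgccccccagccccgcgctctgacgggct
Ltbp1: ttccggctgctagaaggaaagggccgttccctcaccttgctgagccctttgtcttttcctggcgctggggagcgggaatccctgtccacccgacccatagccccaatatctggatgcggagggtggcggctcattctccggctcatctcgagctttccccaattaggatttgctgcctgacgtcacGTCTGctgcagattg
Fbln1: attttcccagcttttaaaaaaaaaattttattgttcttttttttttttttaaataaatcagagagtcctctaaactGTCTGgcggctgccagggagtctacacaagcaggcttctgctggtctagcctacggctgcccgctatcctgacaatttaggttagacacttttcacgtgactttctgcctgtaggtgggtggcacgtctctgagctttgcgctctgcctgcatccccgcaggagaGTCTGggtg

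The Fbln5 window of 250 bases held GGGCGG at 2 places, both on the other strand, and had a GC content of 65.2%. Among all 32851 promoter windows cut to that length, 32.7% held those letters. The Fbln1 window, with a GC content of 46.4%, held CAGAC at 2 places, and 42.2% of all windows of that length held it. The Ltbp1 window of 201 bases held CAGAC at 1 place, as did 36.0% of all windows cut to 201 bases. The TATA box letters TATAAA were in none of the 3 windows and in 12.4% of windows of 250 bases and 9.18% of those of 201 bases, on either strand. The CArG box, the element bound by serum response factor, was likewise in none of them, and in 1.47% of windows of 250 bases and 1.16% of those of 201 bases. The E-box letters CANNTG, which overlapped no capital letters here, were in the Fbln5 and Fbln1 windows at 1 place each, and in 66.2% of all windows of 250 bases. They were not in the Ltbp1 window, and 59.2% of all windows of 201 bases held them. These matches describe letters only.

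Values are log2 RMA intensities, in which each array is brought to the same distribution, so that a gene can only be higher or lower relative to the rest of its array. Array medians lay between 3.59 and 3.65. The number of arrays limits the precision. In the check of tissue labels, a list of 12 sclerotome and cartilage genes averaged 6.04 to 7.32 on the dorsal arrays and 4.71 to 4.94 on the ventral arrays over its 11 tested members, without overlap. A list of 6 notochord genes (T, Shh, Noto, Foxa2, Krt8 and Krt18) went the other way, with 4 of 4 tested genes higher in ventral tissue. Its means were 4.01, 4.13, 4.21 and 5.32 on dorsal and 4.44, 4.87, 4.10 and 5.10 on ventral replicates 1 to 4, so the tissues overlapped. Noto was under the array median on all 8 arrays. Krt8 and Krt18 are keratin genes, so the list need not measure the notochord alone, and their part in its means was not tested. Endothelial genes were present on both sides, at 4.46 to 5.44 in dorsal and 4.98 to 5.33 in ventral tissue. Dorsal replicate 4 stood apart in red cell genes (9.11 against 7.14 to 7.40 on the other dorsal arrays), and dorsal replicate 1 in neural genes (7.29 against 4.12 to 4.50). Dorsal replicate 4 was also the highest dorsal array in the fibroblast, mesothelial, macrophage and notochord list means, and the lowest in the endothelial one (4.46). In the smooth muscle, sympathoadrenal, skeletal muscle and neural list means it lay within the range of the other dorsal arrays. Ventral replicate 1 was the highest array in sympathoadrenal genes (6.94 against 4.40 to 5.90 on the other ventral arrays), of which 7 of 7 had a higher mean in ventral tissue. Of all 12416 genes tested, 49.2% had a higher mean in ventral tissue. Across these genes, limma called 4 at an adjusted p under 0.05 (Benjamini-Hochberg), 1 higher and 3 lower in ventral tissue.

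None of the 7 elastic fibre genes tested passed that threshold, which 0.0322% of all genes passed. Fbln5 had the widest gap, and the median difference was 0.08 (ventral minus dorsal, log2) against -0.0039 over all genes tested. A ventral mean above the dorsal mean was found in 6 of the 7, against 49.2% of all genes tested. That majority was lost when 1 array was left out. Without ventral replicate 2 only Fbln5 and Ltbp1 were above 0, so 2 of 7, and the median was -0.02. With other single arrays left out it ran from 4 of 7 (ventral replicate 3) to 7 of 7 (dorsal replicate 2). With replicate 2 left out of both tissues it was 4 of 7, with a median of 0.09. At an unadjusted p under 0.05, which 7.99% of all genes reached, there was 1 of the 7, Fbln5. In no member tested were the groups free of overlap, as they were in 4.39% of all genes.

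**Figure D1:**
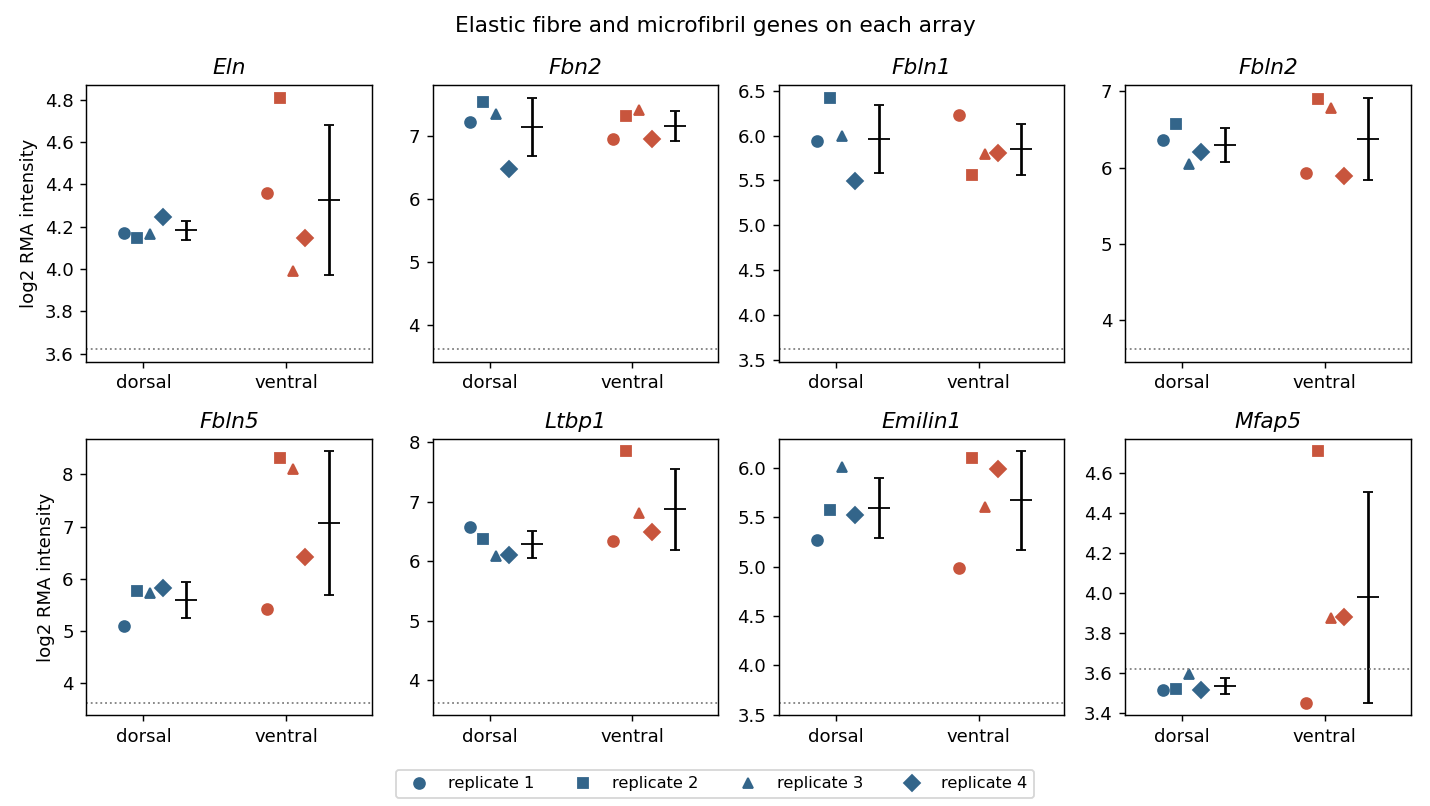
Log2 RMA intensity (vertical axis, a separate scale in each panel) of the 8 elastic fibre genes named in the annotation, on the 4 dorsal (blue) and 4 ventral (red) arrays, with marker shape for the replicate number, black bars for mean ± SD and a dotted line at the mean of the array medians. Ventral replicate 2 is the highest array in 6 of the 8 genes.

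Elastin itself (Eln), the protein of the elastic core, was low and even on the dorsal arrays. Its dorsal values were 4.17, 4.15, 4.17 and 4.25 in replicates 1 to 4, and its ventral values 4.36, 4.81, 3.99 and 4.14. The ventral arrays thus lay on both sides of the dorsal ones, with ventral replicate 2 the highest and ventral replicate 3 the lowest of all. The difference was 0.14 (SE 0.18, 95% interval -0.26 to 0.55, adjusted p = 0.899), and it became -0.02 without ventral replicate 2. The spread was unlike in the tissues, since the SD over 4 arrays was 0.04 in dorsal tissue and 0.36 in ventral tissue.

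Fbn2, a fibrillin that forms the microfibrils of embryonic tissue, was close to equal in the tissues. It stood at 7.21, 7.53, 7.35 and 6.48 on dorsal arrays 1 to 4 and at 6.95, 7.32, 7.40 and 6.95 on the ventral ones. Dorsal replicate 4 was the low array. It also stood apart from the other dorsal arrays in the means of several cell type lists, red cell genes among them. The part of these cell types in this value was not tested. The difference was 0.01 (SE 0.24, 95% interval -0.52 to 0.54, adjusted p = 0.997), or -0.21 without dorsal replicate 4.

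Mfap5, which encodes the microfibril-associated glycoprotein MAGP-2, was above the array median only on ventral replicates 2, 3 and 4. All dorsal values lay in a narrow band under the array medians, at 3.52, 3.52, 3.60 and 3.52. On the ventral arrays it stood at 3.45, 4.71, 3.88 and 3.88, so that replicate 1 lay under every dorsal array and replicates 2, 3 and 4 above all of them. Mfap5 did not pass the filter of 4 arrays above the median and was not tested, and with dorsal values under the array medians no fold is given.

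The fibulins, which bridge elastin and microfibrils, did not move as a group. Fbln5, which binds elastin and lysyl oxidase-like enzymes and is needed for elastic fibres to assemble, stood at 5.08, 5.76, 5.72 and 5.82 on dorsal arrays 1 to 4 and at 5.42, 8.30, 8.11 and 6.41 on the ventral ones. Ventral replicates 2 and 3 stood more than 2 log2 units above any dorsal array, replicate 4 stood above them by less, and ventral replicate 1, the array highest in sympathoadrenal genes, lay within the dorsal range. The part of those cells in this value was not tested. The means were 5.60 ± 0.35 and 7.06 ± 1.38 (SD, n = 4), a difference of 1.46 (SE 0.58, 95% interval 0.18 to 2.75) or 2.76-fold. The unadjusted p was 0.0298 and the adjusted p 0.564 in limma, rank 654 of the 12416 genes. Over the 8 fits that left out 1 array, the difference stayed above 0, from 1.05 without ventral replicate 2 to 2.01 without ventral replicate 1, where the adjusted p was 0.164. The unadjusted p was 0.0757 without dorsal replicate 1, 0.0860 without ventral replicate 2 and 0.0885 without ventral replicate 3. It was lowest, at 0.0012, without ventral replicate 1. More cells that make Fbln5 and more Fbln5 RNA per cell cannot be told apart in such bulk tissue.

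Fbln2, found in vessel walls and at basement membranes, had values of 6.36, 6.57, 6.05 and 6.21 on dorsal arrays 1 to 4 and of 5.92, 6.90, 6.78 and 5.89 on the ventral ones. The ventral arrays formed a high pair (replicates 2 and 3) and a low pair (replicates 1 and 4), with the dorsal values between the pairs. The same ventral arrays were the higher ones for Fbln5. The difference of the means was 0.08 (SE 0.26, 95% interval -0.51 to 0.67, adjusted p = 0.972).

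Fbln1, a fibulin of embryonic mesenchyme and basement membranes, was the only member tested with a lower ventral mean. Dorsal values were 5.95, 6.42, 5.99 and 5.49 and ventral values 6.23, 5.56, 5.79 and 5.80 in replicates 1 to 4. The tissues overlapped widely, and ventral replicate 2, high in most other members, was the lowest ventral array here. The difference was -0.12 (SE 0.23, 95% interval -0.63 to 0.39, adjusted p = 0.939), and 0.03 without dorsal replicate 2.

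Ltbp1, which ties latent TGF-beta to microfibrils, had the next widest gap after Fbln5. It stood at 6.57, 6.37, 6.09 and 6.11 on dorsal arrays 1 to 4 and at 6.34, 7.85, 6.81 and 6.48 on the ventral ones. Only ventral replicates 2 and 3 lay above every dorsal array. The difference was 0.59 (SE 0.31, 95% interval -0.10 to 1.28, unadjusted p = 0.0872, adjusted p = 0.693), and without ventral replicate 2 it was 0.26.

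Emilin1, a glycoprotein found where elastin meets the microfibrils, overlapped across its whole dorsal range. Dorsal values were 5.27, 5.57, 6.00 and 5.52 in replicates 1 to 4, and ventral values 4.99, 6.09, 5.61 and 5.98. Ventral replicate 1 was the lowest of all arrays and ventral replicate 2 the highest. The difference was 0.08 (SE 0.27, 95% interval -0.52 to 0.67, adjusted p = 0.975), and it was -0.07 without ventral replicate 2.

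**Figure D2:**
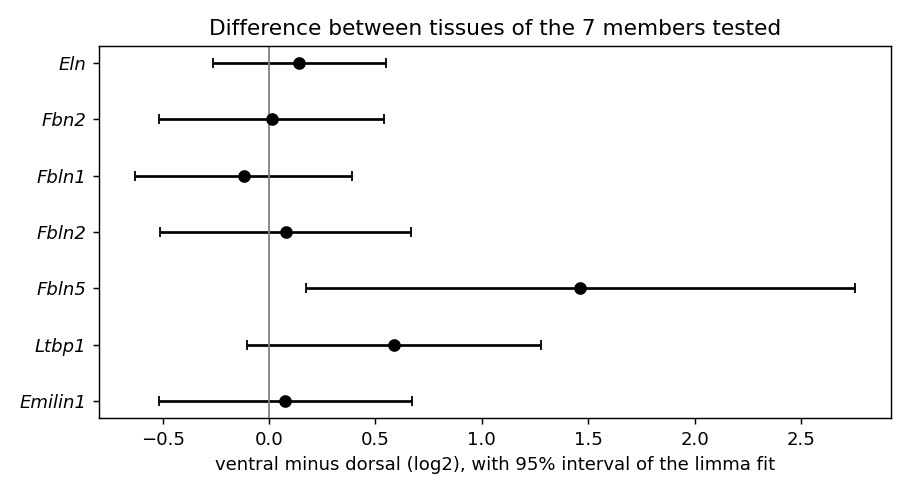
Ventral minus dorsal difference in log2 units (horizontal axis) of the 7 elastic fibre genes tested, with points for the limma estimate and bars for its 95% interval over 4 arrays a tissue. The interval of Fbln5, 0.18 to 2.75, lies above 0, and those of the other 6 genes include 0.

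Most members spread more among ventral than among dorsal arrays. The ventral SD was above the dorsal SD in 5 of the 7 genes tested, all but Fbn2 and Fbln1, where 49.0% of all genes tested showed this. It was at least 2 times the dorsal SD in 4 of 7, namely Eln, Fbln2, Fbln5 and Ltbp1, and in 16.3% of all genes tested. Ventral replicate 2 gave the highest value of all 8 arrays in 5 of 7 genes (Eln, Fbln2, Fbln5, Ltbp1 and Emilin1) and in 13.9% of all genes tested. Mfap5, which was not tested, was highest there too. These counts were made after the values were seen, and they describe this set of arrays.

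Smooth muscle genes as a list mean, though not each of them, were also highest on ventral replicate 2. The mean of the 9 tested members of a list of 12 was 6.60 on that array, 5.42, 6.00 and 6.26 on ventral replicates 1, 3 and 4, and at most 5.49 on the dorsal arrays. All 9 had a higher mean in ventral tissue, against 49.2% of all genes tested. Acta2, the alpha actin of smooth muscle, was at 7.96 on ventral replicate 2, against 6.28, 6.87 and 6.75 on the other ventral arrays and 5.85 to 6.68 on the dorsal ones. The part of smooth muscle content in the values of Fbln5, Ltbp1 and Mfap5 was not tested. Of the fibroblast genes, 8 of 10 tested also had a higher mean in ventral tissue, with list means of 6.85, 7.21, 6.92 and 7.83 on dorsal and 7.86, 7.73, 7.70 and 7.41 on ventral replicates 1 to 4. Of the mesothelial genes, 5 of 7 had a higher ventral mean, with list means of 3.68, 4.16, 3.94 and 4.89 on dorsal and 4.61, 5.24, 4.62 and 5.25 on ventral replicates 1 to 4. The part of these cell types was not tested either.

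**Figure D3:**
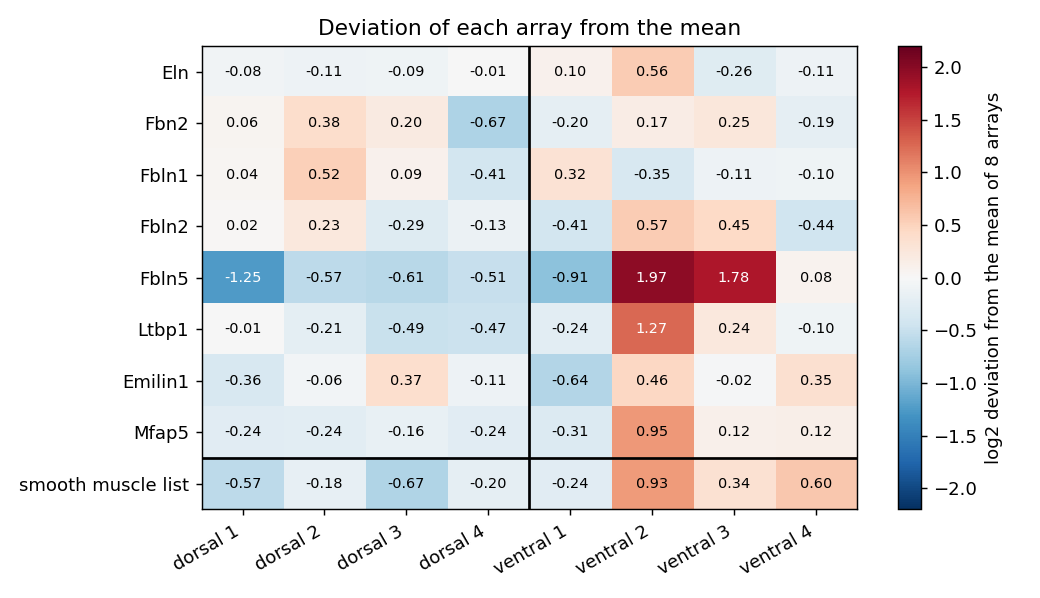
Deviation of each array (columns) from the mean of all 8 arrays in log2 units, as colour and number, for the 8 elastic fibre genes (rows) and the mean of the smooth muscle list. Ventral replicate 2 deviates by 1.97 for Fbln5, 1.27 for Ltbp1, 0.95 for Mfap5 and 0.93 for the smooth muscle list.

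For each member tested, the 3 genes with the nearest pattern were found by Pearson's r over the 8 arrays among 11349 other genes, as a description of these arrays. Those of Fbln5 were Aldh1a1, an enzyme of retinoic acid synthesis (r = 0.960), Ppan (0.959) and Lancl1 (0.952), and Aldh1a1 averaged 4.52 in dorsal and 6.68 in ventral tissue. Those of Ltbp1 were the thromboxane receptor gene Tbxa2r (0.989), Nmb (0.982) and Vps26a (0.963). Eln was nearest to Rps14 (0.987), Snord32a (0.970) and Pip4k2c (0.967), and Emilin1 to Snord118 (0.958), Tcf15 (0.956) and Dut (0.949). Fbn2 was nearest to Bcl9 (0.973), Nedd4 (0.962) and Ofd1 (0.960). The nearest to Fbln1 were Atp9b (0.970), H2-K2 (0.959) and Acrbp (0.955), and to Fbln2 they were Sdc4 (0.940), Podxl2 (0.939) and Abt1 (0.922). Arrays of both tissues enter each r, so that a gap between the tissues or 1 high array can set it. Each r was also picked as among the highest of 11349 over only 8 arrays, so it is high by selection. Members with no gap between the tissues, such as Fbn2 and Fbln1, had values as high.

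Other genes of elastic fibre biology were taken from 4 lists by role, 74 genes of which 59 were tested. The lists were written with earlier results of these data known, so their counts are not independent of the data. None of the 59 passed the adjusted threshold. At an unadjusted p under 0.05 there were 6 higher and 3 lower in ventral tissue, where the background was 3.97% and 4.02% of all genes.

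Among 23 tested genes of related families (microfibril-associated proteins, fibulins, latent TGF-beta binding proteins, emilins and partners), 11 were higher and 12 lower in ventral tissue, with a median difference of -0.04. Efemp1 (fibulin-3) stood at 6.89, 6.40, 7.37 and 6.37 on dorsal arrays 1 to 4 and at 7.20, 7.98, 7.93 and 7.52 on the ventral ones, with a difference of 0.90 (SE 0.26, adjusted p = 0.376). Only dorsal replicate 3 reached into the ventral range. Thsd4, whose product promotes fibrillin microfibril assembly, went the other way, at 4.47, 4.81, 4.58 and 4.80 in dorsal and 4.05, 3.66, 4.22 and 4.36 in ventral tissue. Every dorsal array was above every ventral array, which was so for 2.38% of all genes, and the difference was -0.59 (SE 0.18, adjusted p = 0.434). Hmcn1 (hemicentin-1, also of the fibulin family) differed by -0.83 (SE 0.33, adjusted p = 0.581), and by -0.55 without ventral replicate 2, its lowest array at 4.71. Fbln7 differed by -0.36 (SE 0.17, adjusted p = 0.652). Outside the rule for names and chosen after values were seen, Mfap2, the close relative of Mfap5, had dorsal and ventral means of 8.12 ± 0.25 and 8.04 ± 0.12 (SD, n = 4).

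Of 9 tested genes for cross-linking, copper supply and secretion, 5 were higher and 4 lower, with a median of 0.13, and none reached an unadjusted p under 0.05. The copper chaperone Atox1 differed by 0.33, the proline synthesis gene Aldh18a1 by 0.26, and the lysyl oxidase relatives Loxl3 and Loxl4 by -0.41 and -0.30. Lox, which cross-links elastin and was picked out after values were seen, was at 5.06, 5.34, 5.22 and 4.31 on the dorsal arrays and at 4.77, 6.88, 5.39 and 4.93 on the ventral ones. Ventral replicate 2 was again the high array. Its difference of 0.51 (SE 0.44, adjusted p = 0.831) was 0.05 without that array.

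Genes for elastin receptors, integrins, elastases and their inhibitors had a median of 0.36. Of the 14 tested genes, 13 were higher in ventral tissue, against 49.2% of all genes tested. Without ventral replicate 2 it was 10 of 14, with a median of 0.33. In 4 of the 14 every ventral array was above every dorsal array, as in 2.01% of all genes, and the same 4 had an unadjusted p under 0.05. Cst3, the cysteine protease inhibitor cystatin C, was at 8.01, 8.49, 8.80 and 8.98 in dorsal and 9.51, 9.75, 9.61 and 9.45 in ventral tissue, a difference of 1.01 (SE 0.20, adjusted p = 0.159). Its ventral arrays were close together and its dorsal arrays spread over about 1 log2 unit. Mmp14, a membrane-bound protease that activates Mmp2, differed by 0.84 (SE 0.23, adjusted p = 0.342). The elastase cathepsin S (Ctss) differed by 0.88 (SE 0.24, adjusted p = 0.360). Glb1, of which a splice form encodes the elastin-binding protein, differed by 0.71 (SE 0.20, adjusted p = 0.360). This value is for the whole gene and does not tell its splice forms apart. Macrophage genes moved the same way, with 8 of 8 higher in ventral tissue and list means of 4.44 to 5.08 on dorsal and 4.96 to 5.66 on ventral arrays, and their part in the values of Cst3 and Ctss was not tested.

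Of 13 genes of TGF-beta ligands, receptors, Smads and targets, 4 were higher and 9 lower in ventral tissue, with a median of -0.19. The matrix protein gene Tgfbi, a TGF-beta target, was at 7.55, 7.10, 7.34 and 7.43 on dorsal arrays 1 to 4 and at 7.43, 8.17, 8.04 and 7.93 on the ventral ones. Ventral replicates 2 to 4 lay above all dorsal arrays, and the difference was 0.54 (SE 0.18, adjusted p = 0.510). The type I receptor gene Tgfbr1 was lower on every ventral array (6.35 to 6.80) than on any dorsal array (6.85 to 7.01), which was so for 2.38% of all genes. Its difference was -0.40 (SE 0.15, adjusted p = 0.555). Smad2, which carries the signal to the nucleus, differed by -0.26 (adjusted p = 0.784), and the target Ccn2 by -0.35 (adjusted p = 0.804).

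**Figure D4:**
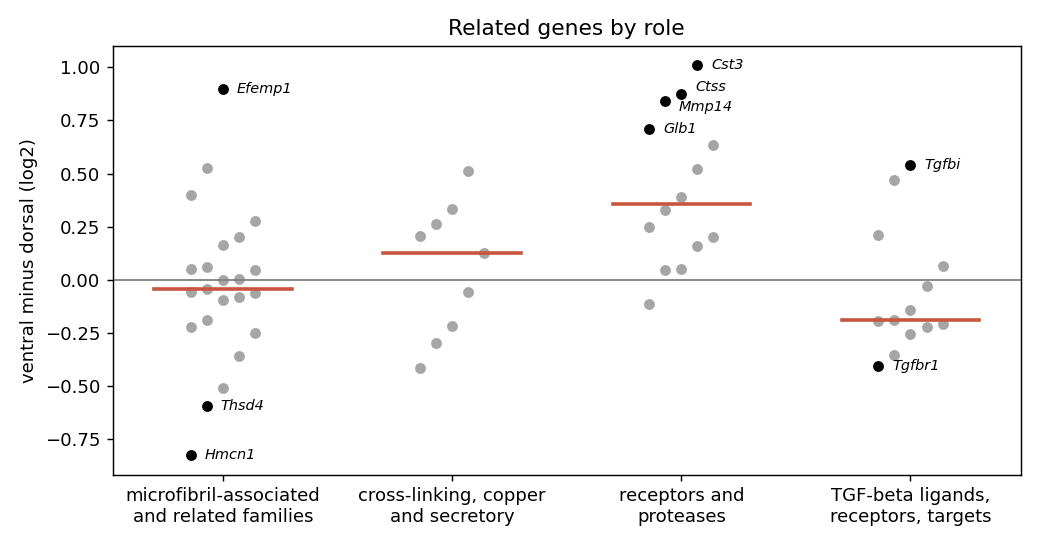
Ventral minus dorsal difference in log2 units (vertical axis) of the 59 tested genes in 4 lists by role, with black points for an unadjusted p under 0.05, grey points for the others and red lines for list medians. The medians are -0.04, 0.13, 0.36 and -0.19 from left to right, and no gene passed the adjusted threshold.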

How the data were processed

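The deposited table holds log2 intensities of 25429 rows named by Entrez gene number on 8 arrays. The submitters' processing notes name Affymetrix Expression Console and RMA, a method with background correction, equalised distributions and probe summaries. Versions and the definition of the rows are not given in the sources used here. RNA in the picogram range was amplified, per the labels' protocols, which can add spread to weak genes. The platform table named 24675 rows with 1 symbol, 0 with several and 754 with none, which were not used. A gene was tested if at least 4 arrays had it above their median (12416 genes). The test was limma 3.58.1 in R 4.3.3 (lmFit, eBayes with trend and robust estimation), two-sided, Benjamini-Hochberg adjusted, threshold 0.05, without a replicate block, and was tested on simulated data. The labels do not say that a number marks 1 embryo, so the numbers were not taken as pairs. Same-numbered arrays correlated in their deviations from tissue means at r = 0.11, 0.03, 0.02 and 0.12. Arrays of different number correlated at -0.13 to 0.10, and these values do not settle whether the arrays are paired. Alternatives were a fixed or random replicate block, 2 other filters, 2 scalings, a plain variance model, array weights and leaving out arrays. Related genes were named if among the 4 smallest p of a list or at an unadjusted p under 0.05. The members and lists were chosen with earlier results of these data known. Promoters came from RefSeq windows of GRCm38, which matched 5 of the 8 members named in the annotation. Those of Fbln2 and Emilin1 held too short a stretch before the gene's outermost start and are not shown.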

Additional observations from a re-analysis of the deposited data

Results flagged for a closer look

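In 5 of 48 groups of 4 arrays, from the genes named by rule, a single array lay far from the others by Dixon's criterion (its gap to the nearest array over the whole range), which chance passes in about 5% of groups. Fbln5 stood at 5.08 on dorsal replicate 1, with the other dorsal arrays at 5.72 to 5.82. Mfap5 stood at 3.60 on dorsal replicate 3, with the others at 3.52, all under the array medians. Glb1 stood at 5.52 on dorsal replicate 4 (others 4.77 to 4.82), and Aldh18a1 stood at 5.02 on that array (others 5.29 to 5.33). Hmcn1 stood at 4.71 on ventral replicate 2 (others 5.77 to 5.90).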

How the results depend on the processing

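No elastic fibre gene was called under any of the 20 alternatives, and neither was any of the related genes. Over all genes, 4 were called, against 0 with a fixed replicate block, 7 with array weights, and 0 to 21 when 1 array or 1 replicate number was left out. It was 0 without dorsal replicate 2 or 3 and without ventral replicate 2, 3 or 4, 8 and 9 without dorsal replicate 1 and 4, and 20 without ventral replicate 1. With the fixed block Fbln5 had an unadjusted p of 0.0086 and an adjusted p of 0.377 in limma, and the block changed no call among the members. Fbln5 and Ltbp1 were above 0 in every alternative run, and the other 5 crossed 0 in some. With arrays left out singly or by number, Eln ranged from -0.0304 to 0.25, Fbn2 from -0.21 to 0.14, Fbln1 from -0.28 to 0.13, Fbln2 from -0.14 to 0.25 and Emilin1 from -0.0727 to 0.30, and Fbn2 was -0.0752 with array weights. The cause was not tested. The scalings moved the median of all genes by under 0.01. With Mfap5 included when no filter was used, 7 of 8 members had a higher ventral mean.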
